A study of Homo sapiens with 6 samples.

Results

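The 2019 sites described here are distal ATAC-seq peaks of naive human embryonic stem (nES) cells whose accessibility was higher after dm-αKG. They were taken from a table of 171517 peaks, of which 125892 had their centre more than 1 kb from every GENCODE start of a protein-coding transcript. Of these distal peaks, the 62946 with a mean dm-αKG level at or above their median of 2.78 CPM were kept as well covered. A site was called opening when the log2 ratio of its mean CPM, dm-αKG over control, was at least 0.7 and all 3 dm-αKG libraries were above all 3 controls. These were 3.21% of the well-covered distal peaks. CPM gives the count of a peak per 1000000 counts of its library over all peaks of the table. Since the rule used the levels in all 6 libraries, the difference in accessibility is given below as a description, without a test.

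The cells were of the line H9, derived from a human embryo and long established in culture, so all 6 libraries share 1 genotype. They were grown under hypoxia (5% O2) in tt2iLGö, a naive medium with PD0325901 (1 μM), CHIR99021 (0.3 μM), Gö 6983 (2 μM) and human LIF (10 ng per ml). Mouse feeder cells were depleted before the cells were seeded on laminin, and by the labels they grew there for 48 h before the treatment, whereas the methods have the treatment start at seeding. For the last 24 h the medium held either 4 mM dm-αKG, a cell-permeable form of α-ketoglutarate (αKG), or 0 mM, with 3 libraries in each group. The sample labels name DMSO as the treatment of the control group, whereas the methods name 0 mM dm-αKG. The replicates are described as biological, from 1 experiment, and the labels do not say that they were separate cultures. The libraries held between 13025674 and 26828622 counts in peaks. As a check of the cell type, 8 of 9 naive marker genes had a promoter peak, with control levels of 10.2 to 26.5 CPM (median 15.9). All 6 primed marker genes had one too, at 5.70 to 23.9 CPM (median 9.94), so the ranges of naive and primed markers overlapped. Trophectoderm (6 of 6 genes), mesoderm (3 of 3) and endoderm (4 of 4) markers had promoter peaks as well, with medians of 13.2, 9.95 and 7.94 CPM, so promoter peaks did not single out the naive state.

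In ATAC-seq, a transposase cuts accessible DNA, and many accessible sites far from transcript starts are enhancers, where transcription factors bind short sequences and act on genes at a distance. JUN and FOS proteins form the dimer AP-1, which binds TGACTCA. NRF2, the main factor of the antioxidant response, pairs with small MAF proteins and binds a longer sequence, TGACTCAGC, that contains the AP-1 letters. Forkhead (FOX) proteins bind TGTTTAC and include factors known to open chromatin in early development. αKG is an intermediate of the TCA cycle and a cosubstrate of enzymes that demethylate histones and DNA.

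Sequences of 10 sites follow (hg38, + strand, 5′ to 3′, the whole peak as tabulated). The first group holds the sites with AP-1 letters among the 6 of highest log2 ratio. In the sequences, capitals mark TGACTCA, extended to TGACTCAGC where the NRF2 letters are complete, on either strand (TGAGTCA and GCTGAGTCA when read on the + strand).
HBE1 site (chr11:5280674-5280873): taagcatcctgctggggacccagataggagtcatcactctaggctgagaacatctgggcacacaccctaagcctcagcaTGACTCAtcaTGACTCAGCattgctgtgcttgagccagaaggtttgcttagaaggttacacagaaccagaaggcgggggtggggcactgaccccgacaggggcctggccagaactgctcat
FGF14 site (chr13:102369436-102369635): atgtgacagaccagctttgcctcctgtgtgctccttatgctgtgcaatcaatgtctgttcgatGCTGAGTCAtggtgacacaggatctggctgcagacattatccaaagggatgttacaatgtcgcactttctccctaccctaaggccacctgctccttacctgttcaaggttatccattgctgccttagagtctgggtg
UPF2 site (chr10:11982365-11982564): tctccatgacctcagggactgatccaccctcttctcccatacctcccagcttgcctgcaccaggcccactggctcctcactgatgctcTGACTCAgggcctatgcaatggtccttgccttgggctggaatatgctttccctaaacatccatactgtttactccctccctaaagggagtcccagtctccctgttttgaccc

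The HBE1 site lay in an annotated intron 10828 bp before the nearest start of HBE1, the embryonic ε-globin gene, within the locus control region of the β-globin cluster. Its AP-1 letters occur as a tandem pair, which is the binding site known there for NF-E2, a relative of NRF2 that also pairs with small MAF proteins. The FGF14 and UPF2 sites lay in introns of these genes, which encode a regulator of sodium channels and a factor of nonsense-mediated RNA decay.

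The next 4 sequences are sites of high dm-αKG level with the NRF2 letters, and the last 3 are sites of high level with AP-1 letters alone. They show that the same letters occur at sites that were already accessible in control.
UBE2E3 site (chr2:180963004-180963204): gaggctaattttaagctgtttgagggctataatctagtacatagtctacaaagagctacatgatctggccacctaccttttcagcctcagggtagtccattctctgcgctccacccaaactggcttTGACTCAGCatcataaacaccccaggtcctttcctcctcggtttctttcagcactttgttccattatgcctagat
GNA13 site (chr17:65064785-65064989): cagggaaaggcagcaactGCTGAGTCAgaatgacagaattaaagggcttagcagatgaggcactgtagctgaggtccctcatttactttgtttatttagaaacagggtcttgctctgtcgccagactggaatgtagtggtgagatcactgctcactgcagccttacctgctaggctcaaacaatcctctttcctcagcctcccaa
BLOC1S4 site (chr4:6732720-6732929): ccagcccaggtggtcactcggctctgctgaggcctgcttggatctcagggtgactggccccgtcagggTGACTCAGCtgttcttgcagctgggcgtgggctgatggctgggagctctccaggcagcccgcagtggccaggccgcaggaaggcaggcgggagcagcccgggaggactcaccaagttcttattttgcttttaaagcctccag
ARRDC3 site (chr5:91314309-91314517): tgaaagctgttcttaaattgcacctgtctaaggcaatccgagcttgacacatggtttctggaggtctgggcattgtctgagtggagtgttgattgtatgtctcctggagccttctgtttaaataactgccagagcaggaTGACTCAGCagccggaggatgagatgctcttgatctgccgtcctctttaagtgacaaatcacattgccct
SCG2 site (chr2:223613165-223613369): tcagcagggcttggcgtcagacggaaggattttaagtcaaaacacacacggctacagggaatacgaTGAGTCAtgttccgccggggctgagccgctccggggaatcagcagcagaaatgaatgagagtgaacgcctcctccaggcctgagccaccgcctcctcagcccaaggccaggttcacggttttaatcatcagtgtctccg
ST8SIA1 site (chr12:22275938-22276149): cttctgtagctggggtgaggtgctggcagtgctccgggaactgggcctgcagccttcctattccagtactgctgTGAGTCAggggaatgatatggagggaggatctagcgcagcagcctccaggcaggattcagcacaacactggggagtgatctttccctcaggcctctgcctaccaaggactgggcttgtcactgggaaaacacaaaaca
GATA6 site (chr18:22223778-22223977): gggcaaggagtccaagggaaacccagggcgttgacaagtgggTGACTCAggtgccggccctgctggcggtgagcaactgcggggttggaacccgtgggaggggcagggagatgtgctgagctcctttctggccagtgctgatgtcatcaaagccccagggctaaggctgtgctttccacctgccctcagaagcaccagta

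Of these 7 sites, 6 lay between genes, and the ST8SIA1 site lay in an intron of that gene, which encodes a sialyltransferase. The GATA6 site lay 52944 bp past the start of GATA6, a regulator of primitive endoderm. Sites are named here by the nearest protein-coding transcript start, which gives a position and not a target.

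The opening sites were weak to moderate in control and rose by less than 1 log2 unit in most cases. The median site had 2.27, 2.27 and 2.23 CPM in the control libraries and 4.10, 4.28 and 4.22 CPM in the dm-αKG libraries. The medians were close within each group, and no median of 1 group came near one of the other. This distance between the groups follows from the rule. Together the sites took up 0.545%, 0.545% and 0.533% of all counts in control and 0.985%, 1.02% and 1.01% after dm-αKG. In the other 60927 well-covered distal peaks the median level lay between 5.6 and 5.64 CPM in control and between 5.33 and 5.45 CPM after dm-αKG. The lower control level of the opening sites is largely set by the rule, which demands coverage after dm-αKG and a ratio over control. In bulk libraries, more cells with an open site and more opening per cell cannot be told apart.

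The log2 ratio of the sites ran from 0.70 to 2.36, with a median of 0.86 and quartiles of 0.77 and 1.01. It exceeded 1 in 532 sites (26.3%) and 1.5 in 42 sites (2.08%). The mean dm-αKG level ran from 2.78 to 32.5 CPM and exceeded 10 CPM in 91 sites. No opening site had a count of 0 in a control library, and 15 had a mean control level under 1 CPM. A lack of overlap between the groups, which the rule demands, occurred with dm-αKG higher in 16.6% of all peaks of the table, and in 11547 of the well-covered distal peaks. The size of the ratio was the stricter criterion, since 2105 well-covered distal peaks met it.

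**Figure D1:**
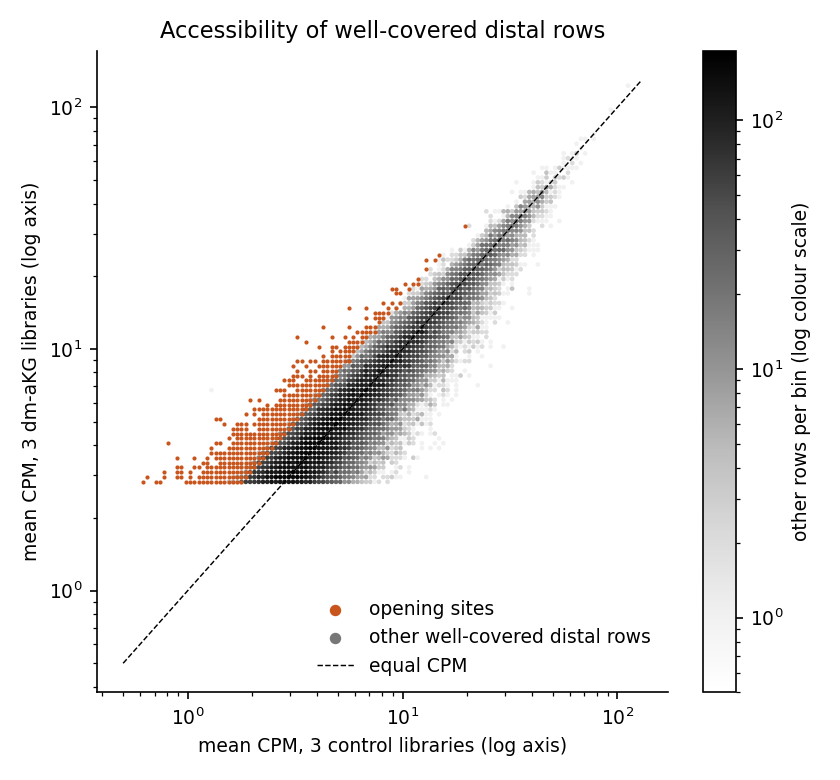
Mean CPM of well-covered distal peaks in the 3 dm-αKG libraries against the mean in the 3 control libraries, on log axes, where rows are the peaks of the table. Each point is a bin of peaks, in orange where the bin holds opening sites and in grey, by number, where it holds others. The 2019 opening sites lie above the line of equal CPM, mostly at low levels, with a median of 2.23 CPM in control and 4.15 CPM after dm-αKG.

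An edgeR quasi-likelihood test over all peaks called 474 opening sites (23.5%) more accessible, at an adjusted p below 0.01 and a log2 fold change above 1, where 0.782% of all peaks were called. Without the limit on the fold change, 1628 opening sites (80.6%) passed, against 3.34% of all peaks. DESeq2, with the first thresholds, called 443 opening sites and 0.481% of the peaks to which it gave an adjusted p. These counts are a description, because the rule and the tests read the same contrast. The 1342 peaks called by edgeR also included 655 distal peaks below the coverage median, 211 peaks within 1 kb of a start and 2 others, so the opening sites described here hold 474 of these 1342 calls.

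The rule was also applied to 2 control and 2 dm-αKG libraries, to ask whether the difference is seen in libraries that it did not use. The log2 ratio was read in the pair left out, where 0.5 CPM was added to both levels. The 9 choices picked between 2617 and 2789 peaks, with a median log2 ratio of 0.85 to 0.87, without a pseudocount, in the libraries that chose them. In the pair left out, the median was 0.48 to 0.52, and 88.2% to 92.1% of the peaks were higher with dm-αKG. Over all well-covered distal peaks, the left-out median was -0.02 to 0.01, and 47.9% to 51.1% were higher. A log2 ratio of at least 0.7 in the left-out pair was found in 29.1% to 34.4% of the chosen peaks and in 3.24% to 4.45% of all. Without the added 0.5 CPM, the left-out median was 0.59, below that in the choosing libraries. Direction was thus kept in most chosen peaks at a smaller size, and the log2 ratios given for named sites were read in the libraries that selected them. The 9 choices share libraries and are not independent. The peaks themselves were called with all 3 libraries of each treatment, so the left-out pair had a part in which peaks exist. How far this enters the left-out values was not tested.

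**Figure D2:**
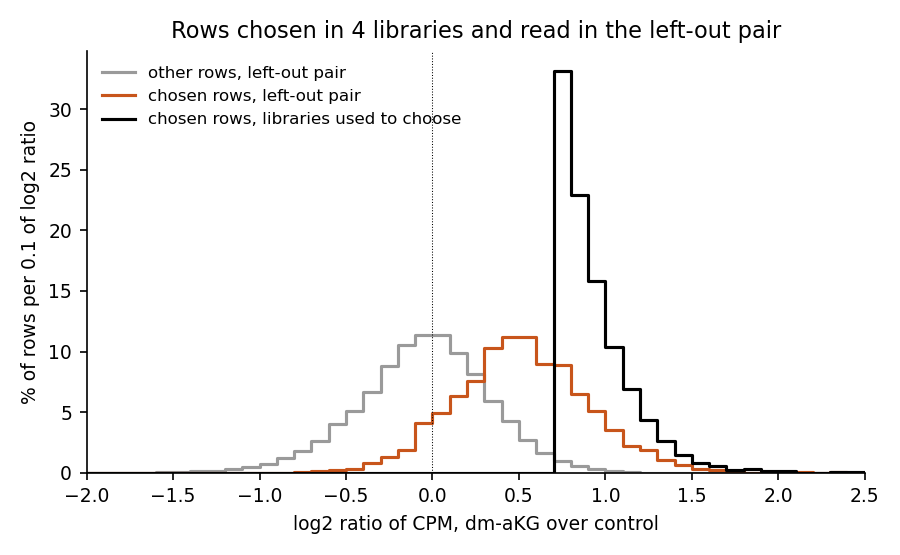
Distribution of the log2 ratio of CPM, dm-αKG over control, for 1 of the 9 choices (control 1 and dm-αKG 1 left out), as the percentage of peaks per 0.1 of log2 ratio. The black line gives the 2787 chosen peaks in the libraries that chose them (median 0.87, no pseudocount), the orange line the same peaks in the left-out pair (median 0.51, with 0.5 CPM added), and the grey line all other well-covered distal peaks in that pair.

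No single library held the highest or lowest level at most sites, but they did not contribute evenly. The highest dm-αKG level of a site was in replicate 1 for 493 sites (24.4%), and in replicates 2 and 3 for 763 each (37.8%). The lowest control level was in replicate 1 for 625 sites, in replicate 2 for 623 and in replicate 3 for 771 (38.2%). Depth differed too. Of the dm-αKG libraries, replicate 1 held 26828622 counts in peaks, and replicates 2 and 3 held 15189519 and 13025674. Control replicate 3 held the fewest of its group, 16159058. The part of depth in these shares was not tested. The median SD of log2(CPM + 0.5) between replicates was 0.19 in control and 0.17 in dm-αKG. In other well-covered distal peaks with a dm-αKG level under the upper quartile of the opening sites, it was 0.16 and 0.18. Those peaks were not matched on control level, and the rule on overlap itself acts on the spread of the opening sites.

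Values next to the limits of the rule were close to each other. A site in an intron of POLN, just inside the limit on the log2 ratio, had 1.86, 2.06 and 2.04 CPM in control and 3.24, 3.23 and 3.22 CPM after dm-αKG. A peak near ZNF92, just outside it, had 3.91, 3.95 and 3.65 CPM in control and 6.15, 6.72 and 5.83 CPM after dm-αKG. Both had groups that stood well apart, by 1.16 and 1.88 CPM. The second site inside this limit, in an intron of PLCB1, had means of 2.33 and 3.78 CPM and groups only 0.0888 CPM apart, while the second peak outside it, near ZNF516, had means of 2.74 and 4.45 CPM and a gap of 0.776 CPM. At the limit on overlap, the lowest dm-αKG library of the ZFHX4 site was above the highest control by 0.00414 CPM and that of the ZFPM2 site by 0.00856 CPM, while peaks near PLXNA2 and TNFAIP8L1 missed it by less than 0.001 CPM. At the limit on coverage, sites at MVK and OSBP2 were just inside, and peaks near DPYD and FAM83F just outside, all at a mean of 2.78 CPM after dm-αKG. At the limit on distance, a site 1009 bp from a start of MAP1A was inside, and peaks 994 bp from one of PRPF38B and 996 bp from one of STRN4 were outside.

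The 6 sites with the highest log2 ratio had the lowest control means among the named sites, 0.611 to 0.910 CPM, and held no summit of the control peak list. The QTRT2 site, in an intron of the gene for a subunit of a tRNA-modifying enzyme (chr3:114076858-114077057), had 0.909, 0.757 and 0.743 CPM in control and 3.35, 4.61 and 4.38 CPM after dm-αKG, a log2 ratio of 2.36. The HBE1 site had 0.682, 0.631 and 0.619 CPM in control and 1.86, 3.29 and 3.69 CPM after dm-αKG (2.19), with dm-αKG replicate 1 the lowest of its group but still far above every control. Control counts at this site were 15, 15 and 10, and dm-αKG counts were 50, 50 and 48, from libraries of unequal depth. The FGF14 site had 0.318, 0.463 and 1.05 CPM in control and 2.72, 2.63 and 2.99 CPM after dm-αKG (2.19), so that control replicate 3 stood above the other controls. The UPF2 site had 0.863, 0.505 and 1.36 CPM in control and 3.47, 4.35 and 2.99 CPM after dm-αKG (1.98).

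The other two of the 6 had no AP-1 letters. A site 61780 bp before a start of KCTD5, which encodes an adaptor of a ubiquitin ligase, had 0.636, 1.26 and 0.433 CPM in control and 2.94, 2.90 and 3.61 CPM after dm-αKG (log2 ratio 2.02). A site in an intron of MACROD1, a hydrolase of ADP-ribose marks, had 0.364, 0.715 and 1.05 CPM in control and 3.47, 3.09 and 2.00 CPM after dm-αKG (2.01). The groups did not overlap at either site, as the rule demands. Letters of AP-1 were thus present in 3 of the 6 sites, NRF2 in 2 and FOX in 1 (UPF2).

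The sites with the highest level after dm-αKG were all accessible in control and had log2 ratios of 0.71 to 0.82. The highest, in an intron shared by FLRT1 and MACROD1 (chr11:64086030-64086423), had 19.8, 16.7 and 21.8 CPM in control and 34.4, 32.6 and 30.6 CPM after dm-αKG. It was followed by sites near MUC20 (14.6 ± 0.896 against 24.2 ± 1.07 CPM, SD, n = 3), SEPTIN5 (13.1 ± 2.2 against 23.1 ± 2.38), SCG2 (14.1 ± 1.07 against 23.0 ± 2.58), SLC2A1 (13.1 ± 1.44 against 21.8 ± 0.595) and ST8SIA1 (11.7 ± 0.833 against 19.1 ± 1.90). The SCG2 and ST8SIA1 sites hold AP-1 letters, and none of the 6 holds NRF2 or FOX letters.

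The 6 sites with NRF2 letters of highest dm-αKG level had control means of 4.69 to 9.08 CPM, above the 0.644 and 0.611 CPM of the HBE1 and FGF14 sites, which also hold these letters. The GNA13 site, 8147 bp before a start of the gene for a G protein subunit, had 4.14, 4.80 and 5.14 CPM in control and 12, 12.6 and 8.75 CPM after dm-αKG, a log2 ratio of 1.25. The BLOC1S4 site had 4.32, 4.54 and 5.26 CPM in control and 9.69, 9.74 and 10.7 CPM after dm-αKG (1.10). The lowest dm-αKG library was 3.62 and 4.43 CPM above the highest control at these sites. At the UBE2E3 site, near a gene for a ubiquitin-conjugating enzyme, control libraries had 8.82, 7.07 and 8.54 CPM and dm-αKG libraries 14.1, 12.9 and 12.8 CPM (0.71). At the ARRDC3 site they had 7.04, 5.51 and 5.63 CPM and 9.36, 8.36 and 12.4 CPM (0.73), with a gap between the groups of 1.32 CPM. The other two of the 6, in an exon of MYBPC3 and near FAM167A, had log2 ratios of 0.75 and 0.93 (means of 9.08 and 15.3 CPM, and of 5.29 and 10.1 CPM).

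Of the sites with AP-1 but no NRF2 letters, the 4 of highest level lay near SCG2, ST8SIA1, GATA6 and TNFAIP8. The TNFAIP8 site, in an intron (chr5:119274410-119274613), had 9.50, 8.50 and 8.79 CPM in control and 16.4, 17.8 and 18.8 CPM after dm-αKG, a log2 ratio of 0.98. The GATA6 site had 11.9, 10.5 and 11.4 CPM in control and 20.2, 20.3 and 15.4 CPM after dm-αKG (0.73), with dm-αKG replicate 3 the lowest of its group.

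**Figure D3:**
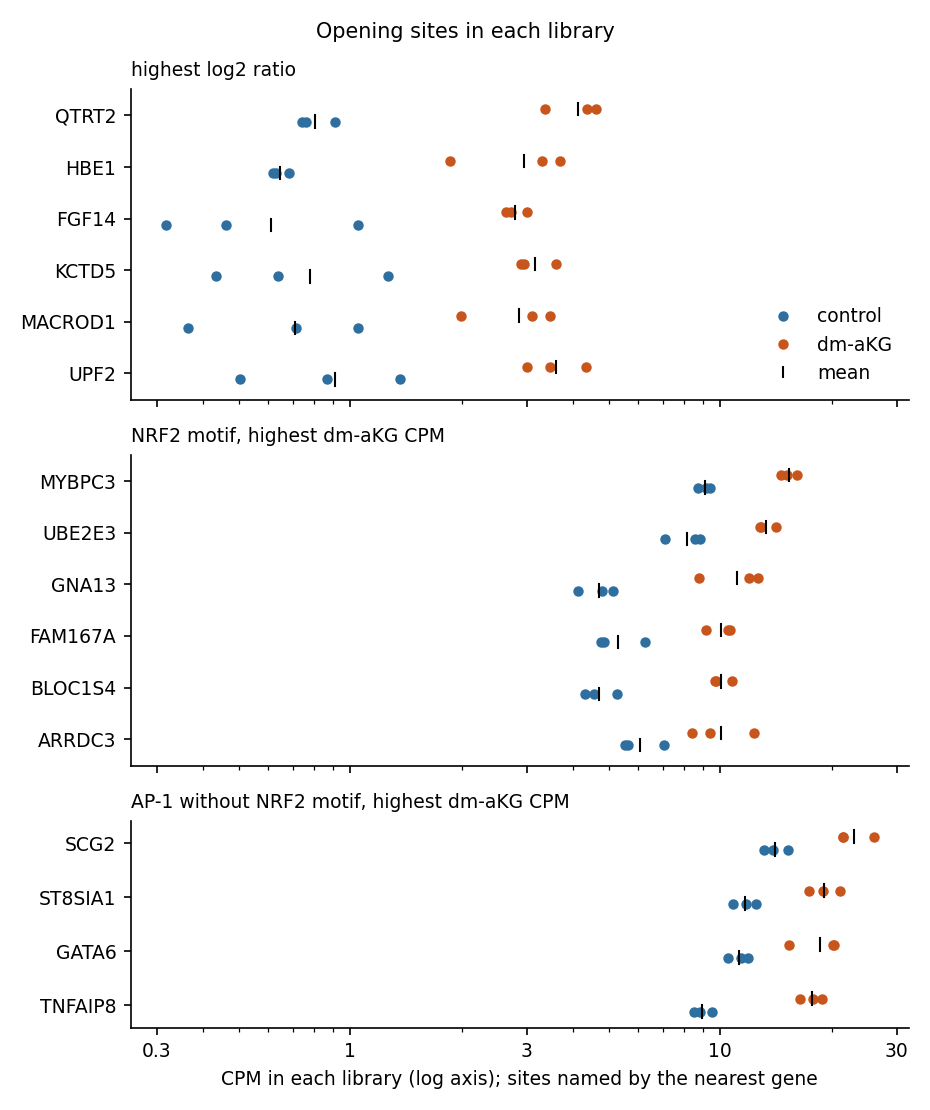
CPM of 16 opening sites in each of the 3 control (blue) and 3 dm-αKG (orange) libraries on a log axis, with a black tick at each mean. The upper panel gives the 6 sites of highest log2 ratio, with control means of 0.611 to 0.910 CPM, the middle panel the 6 sites with NRF2 letters and the lower panel the 4 with AP-1 but no NRF2 letters that had the highest dm-αKG level.

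Sequence was not used to choose the sites. In 200 bp around the peak centre, on both strands, AP-1 letters were present in 296 opening sites (14.7%, 95% Wilson interval 13.2 to 16.3) and in 5.47% (5.30 to 5.66) of the other well-covered distal peaks. The share was 3.26% (2.81 to 3.78) in 5149 closing distal peaks, chosen by the same rule with the groups exchanged and in part also among the others, 3.59% in 223 peaks within 1 kb of a start that met the same limits on ratio and overlap, with the coverage limit set at the median of peaks near starts, and 4.50% in all peaks of the table. NRF2 letters, each of which contains AP-1 letters, were present in 86 opening sites (4.26%, 3.46 to 5.23), in 0.872% (0.801 to 0.949) of the other well-covered distal peaks, in 0.466% of closing peaks and in 0.719% of all peaks. FOX letters were present in 156 opening sites (7.73%, 6.64 to 8.97), in 3.47% (3.33 to 3.62) of the others, in 2.58% of closing peaks and in 2.86% of all peaks. For these 3 motifs, the interval of the opening sites lay above those of the other and closing distal peaks. The intervals cover counting error only, and neighbouring peaks are not independent.

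The same letters in reversed order served as controls of equal composition. Reversed AP-1 letters (ACTCAGT) were in 4.41% (3.60 to 5.39) of opening sites and 2.67% of the others, so this control was also more common in opening sites, by a smaller factor. This control is not free of AP-1, because TGACTCAGT holds both TGACTCA and ACTCAGT. Of the well-covered distal peaks, 190 held TGACTCAGT, and 19 of these opened. They count in this control here and in the GC bands below. Reversed FOX letters (CATTTGT) were in 3.02% (2.36 to 3.86) and 2.61%. Within 40 to 50% GC the reversed AP-1 letters were in 5.75% and 3.81%, and from 50 to 60% GC in 4.86% and 2.82%. The part of base composition in the AP-1 difference was not tested beyond these bands.

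Most of the other motifs differed less between the groups, and some were rarer in opening sites. The letters of KLF factors (GGGTGTG) were in 10.3% of opening sites and 10.1% of the others, and those of STAT3 (TTCNNNGAA) in 5.10% and 5.11%. Letters of TEAD factors (ACATTCC), which act with YAP in trophectoderm, were in 3.42% (2.71 to 4.30) of opening sites, 5.6% of the others and 9.05% of closing peaks. OCT4 letters (ATGCAAAT) were in 2.03% (1.5 to 2.74), 3.05% and 6.31%, and the joint OCT-SOX motif was in 6 opening sites (0.297%), 0.579% of the others and 67 closing peaks (1.30%). The GC box (GGGGCGG) was in 6.24% of opening sites and 10.6% of the others, CTCF letters (CNAGGNGGC) in 5.94% and 9.34%, and ETS letters (CCGGAAG) in 1.14% and 2.46%. Among stress-related motifs, ATF4 letters (TGATGCAA) were in 0.892% of opening sites and 0.960% of the others, and CRE letters (TGACGTCA) in 4 opening sites (0.198%) and 0.322% of the others. The looser antioxidant core TGACNNNGC was in 13.4% (12 to 15) of opening sites and 9.95% (9.72 to 10.2) of the others. Of the remaining patterns, GATA letters (AGATAAG) were in 2.97% of opening sites and 2.29% of the others, RUNX letters (TGTGGTT) in 4.36% and 3.51%, TCF and LEF letters (ATCAAAG) in 2.53% and 1.96%, and the letters of the orphan nuclear receptors NR5A2 and ESRRB (CAAGGTCA) in 1.78% and 1.32%. SOX letters (CATTGTT) were in 46 opening sites and 2.77% of the others, TFAP2 letters (GCCNNNGGC) in 16.1% and 18%, C/EBP letters (TTGCNNAA) in 8.07% and 8.30%, E-box letters (CACGTG) in 2.48% and 3.38%, and p53 core letters in 0.545% and 0.295%. In all, 25 patterns were searched.

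**Figure D4:**
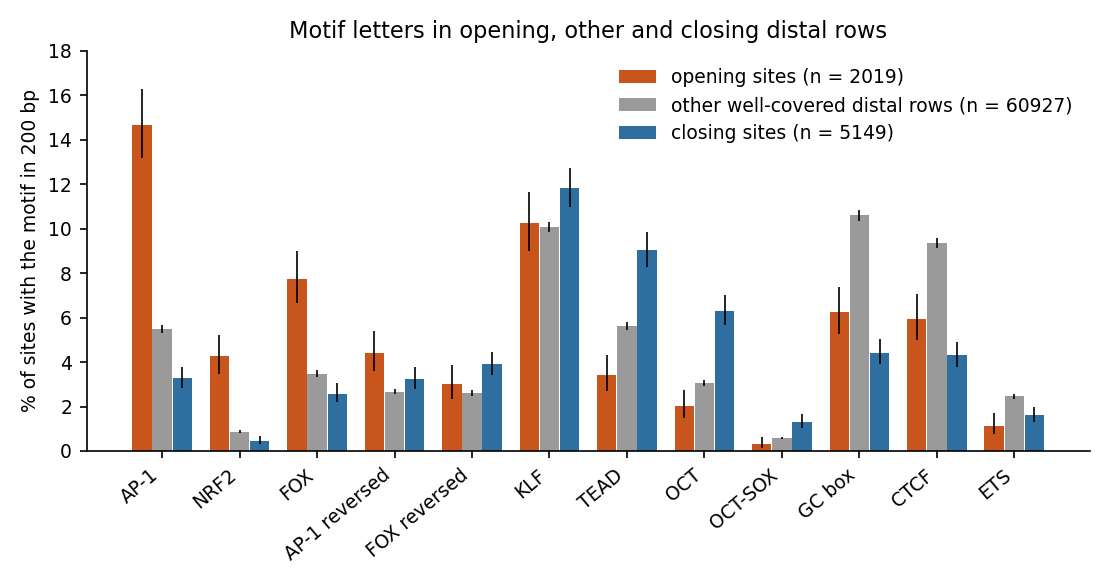
Share of opening, other and closing distal peaks with the letters of 12 motifs in 200 bp around the peak centre, in percent, with 95% Wilson intervals. AP-1 (14.7%), NRF2 (4.26%) and FOX (7.73%) letters stand highest in opening sites, whereas TEAD and OCT letters stand highest in closing sites.

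Read from the motif to the change, 3.21% of all well-covered distal peaks opened. The share was 2.90% among peaks with no AP-1 letters, 7.60% (6.76 to 8.54) with 1 AP-1 site, 16.4% (11.8 to 22.3) with 2 and 23.8% (10.6 to 45.1) with 3 or more, the last from 5 of 21 peaks. It was 13.9% (11.4 to 16.9) among 617 peaks with NRF2 letters and 6.97% (6.11 to 7.93) among 3014 with AP-1 letters alone. FOX letters without AP-1 went with 6.24% (5.29 to 7.34), and AP-1 with FOX in the same peak with 17.9% (12.1 to 25.6), from 22 of 123 peaks. Most peaks with these letters did not open. The median log2 ratio of all peaks with NRF2 letters was 0.18, with 2 AP-1 sites 0.29 and with both AP-1 and FOX 0.23, compared with 0.01 for all well-covered distal peaks.

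The 2 bases after TGACTCA also went with different shares. Of peaks with TGACTCATC, 15.6% opened (42 of 270, 11.7 to 20.4), and of peaks with the NRF2 letters TGACTCAGC 13.9% (86 of 617). TGACTCAGT followed with 10.0% (19 of 190). The lowest shares were 2.60% for TGACTCAAA (4 of 154, 1.01 to 6.49), 3.13% for TGACTCAAG (4 of 128), 3.28% for TGACTCAAT (2 of 61), 3.74% for TGACTCACG (4 of 107) and 3.96% for TGACTCAAC (1.55 to 9.74), whose intervals all included the 2.90% of peaks without AP-1. All 16 extensions were read, a peak with several AP-1 sites counts in each of its extensions, and the tandem letters at the HBE1 site hold both TGACTCATC and TGACTCAGC.

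AP-1 and NRF2 shares rose with the size of the change. In 4 groups of 504 or 505 opening sites ordered by log2 ratio, with limits at 0.77, 0.86 and 1.01, AP-1 letters were in 10.7%, 11.9%, 15.7% and 20.4% and NRF2 letters in 2.18%, 3.76%, 4.76% and 6.34%. FOX letters were in 6.73%, 5.35%, 7.94% and 10.9%, with the second group the lowest. The median dm-αKG level was 4.21 CPM in the first group and 3.91 CPM in the last, so the last did not have the higher levels. Over all well-covered distal peaks, AP-1 letters rose from 3.44% (2.21 to 5.30) at log2 ratios below -1 to 5.38% between 0 and 0.2, 8.34% (7.68 to 9.06) between 0.4 and 0.7 and 20.2% (17.0 to 23.8) above 1. The share thus rose below the limit of 0.7 too. TEAD letters went the other way, from 9.97% between -1 and -0.7 to 3.40% between 0.4 and 0.7, and stayed near that level above it.

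**Figure D5:**
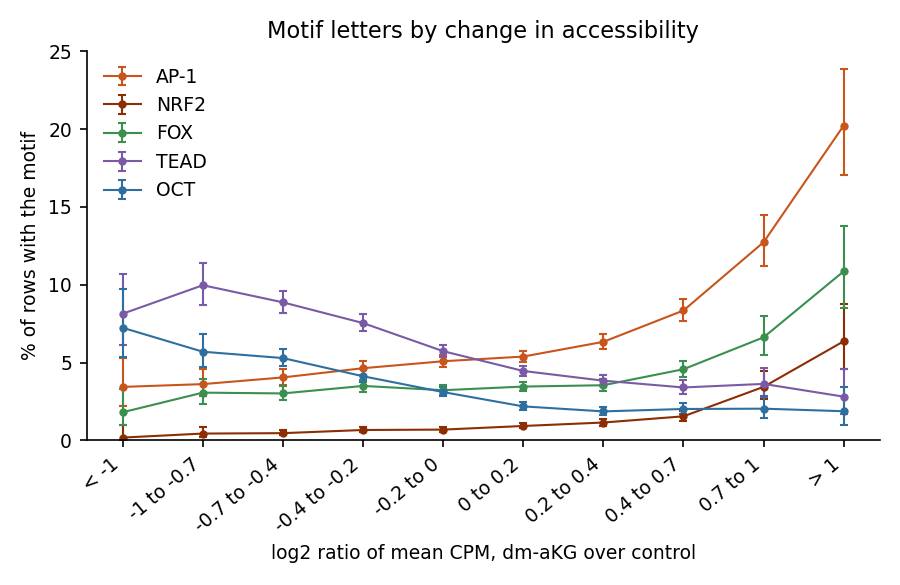
Share of well-covered distal peaks with the letters of 5 motifs, in percent with 95% Wilson intervals, by log2 ratio of mean CPM, dm-αKG over control. AP-1 letters rise from 3.44% below -1 to 20.2% above 1, and FOX and NRF2 letters are highest above 1, while TEAD and OCT letters are highest below -0.7.

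Base composition was compared because it can move with both motifs and accessibility. The median GC content of the 200 bp was 52.0% in opening sites (quartiles 47.5 and 58.5), 54.5% in the other well-covered distal peaks, 50.0% in closing peaks and 68.5% in opening peaks near starts. Opening sites held a median of 3 CG pairs and the others 4. Within bands of GC content, AP-1 letters were in 13.3% of opening sites (4 of 30) and 5.14% of the others below 40% GC. They were in 17.0% and 6.77% from 40 to 50%, in 15.8% and 6.22% from 50 to 60% and in 10.5% and 3.9% from 60 to 70%. Only above 70% was the share not higher, with 1 of 83 opening sites (1.20%) and 1.81% of the others. FOX letters were in 13% and 5.68% from 40 to 50% GC, and in 5.95% and 3.52% from 50 to 60%. The median log2 ratio of a band went from -0.15 below 40% to 0.11 above 70%, so accessibility moved slightly with GC over well-covered distal peaks. The share of these peaks that opened did not follow this median. It was 2.88% below 40% GC, 4.21% from 40 to 50% and 1.61% above 70%.

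When all words of 7 bases found in at least 40 opening sites were ranked by the ratio of their shares in opening and other well-covered distal peaks, TGACTCA came first of 3547, with a ratio of 2.68. Next were ATGACTC (2.44), ATAAACA (2.41), ATGAGTC (2.31), AGTAAAC (2.30) and GTAAACA (2.22). These are overlapping forms of the AP-1 letters, and of the forkhead letters, of which GTAAACA is the other strand. At the other end stood GC-rich words, with GCGCCCC lowest (0.373). Among the 1589 opening sites (78.7%) with neither AP-1 nor FOX letters, ATAAACA, a forkhead variant outside the letters searched, came first (5.66% against 2.36%), followed by GCATAGA (2.52% against 1.25%). The ranking used the sites themselves, and no word was tested.

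Distances of the letters to the peak summit are limited in advance, because peaks were cut around the summit and 200 bp around the centre were searched. Only differences between groups and motifs are therefore read here. The median distance of AP-1 letters to the summit was 31.5 bp in opening sites and 39 bp in the others, and 33.8% and 26.8% of these peaks had them within 20 bp. For FOX letters, 32.7% and 25% were within 20 bp, and for NRF2 letters 24.4% and 25.5%. Reversed AP-1 letters were farther out, at a median of 51.5 and 50.0 bp, with 15.9% and 21.3% within 20 bp.

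By position, 975 opening sites (48.3%, 46.1 to 50.5) lay in introns of protein-coding genes, 886 (43.9%) between genes and 158 (7.83%) in exons. The other well-covered distal peaks had 42.9%, 50.8% and 6.31%, so opening sites were more often in introns. The nearest protein-coding start was 1 to 10 kb away for 568 sites (28.1%), 10 to 100 kb away for 1085 (53.7%) and farther for 366 (18.1%), with a median of 23999 bp, compared with 21252 bp for the others. A lncRNA start lay within 1 kb of 133 sites (6.59%) and of 8.16% of the others. By chromosome, the share of well-covered distal peaks that opened was between 2.23% and 4.91% on the autosomes, highest on chromosome 22 (73 of 1486). It was 1.62% on the X chromosome (21 of 1298). None of the 51 such peaks placed on the Y chromosome opened, and whether their reads arose from a Y chromosome was not checked.

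The authors' peak lists, called separately for each treatment, gave a second view from the same reads. Of the opening sites, 1364 (67.6%) held a summit of both lists, 642 (31.8%, 29.8 to 33.9) of the dm-αKG list only and 13 of the control list only. Of the other well-covered distal peaks, 93.0% held summits of both lists and 3.60% of the dm-αKG list only. The share absent from the control list was 23.6% in the 505 opening sites of lowest log2 ratio and 49.1% in the 505 of highest. Where a value was given, the median fold enrichment over background was 12.9 in the dm-αKG list and 9.77 in the control list, compared with 12.7 and 12.6 in the other peaks. These lists read the same libraries and are not independent support.

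Opening sites lay near another opening site more often than other peaks lay near one. Peaks were cut to 200 bp, so neighbouring summits of 1 accessible region can count as separate sites. How far this enters the shares was not tested. Another opening site was within 1 kb of 81 sites (4.01%), while an opening site was that close to 0.755% of the other well-covered distal peaks. Within 10 kb the shares were 9.06% and 3.95%, and within 100 kb 30.6% and 23.5%. Peaks within 5 kb that were not opening sites themselves had a median log2 ratio of 0.15 (1362 peaks, 65.9% above 0), compared with 0.00 for all other well-covered distal peaks (50.1% above 0). Within 20 kb the median was 0.08. The promoter peaks of the nearest genes had a median of 0.08 (1257 genes), close to the 0.07 of all 15289 promoter peaks. Those of 35 genes with 3 or more opening sites had 0.13, with an interval of the median (0.04 to 0.19) that included 0.07.

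Within 100 kb of a protein-coding start lay 1653 opening sites, nearest to 1423 genes. Of these genes, 1239 had 1 opening site, 148 had 2 and 36 had 3 or more. TBX3, a T-box transcription factor expressed in naive pluripotent cells, had 5 of its 30 well-covered distal peaks opening and 1 closing. CDH23, an adhesion protein of hair cells, had 5 of 21 and none closing. BCAR3 (4 of 18), LDLRAD4 (4 of 18) and CD247 (4 of 8) followed, also with none closing. Some of these sites are adjacent peaks, such as chr12:114671779-114671978 and chr12:114672080-114672279 near TBX3. Sites less than 1 kb apart also occur at BCAR3 and CD247, so the numbers can count 1 accessible region more than once. BCAR3 is an adaptor of adhesion signalling, LDLRAD4 an inhibitor of TGF-β signalling and CD247 the ζ chain of the T cell receptor.

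At TBX3 the opening sites stretched over chr12:114628268-114774535. The one with the highest log2 ratio, 39999 bp past a start, had 1.59, 1.81 and 0.805 CPM in control and 4.85, 4.67 and 2.92 CPM after dm-αKG (1.56). The site 90260 bp before a start had 2.68, 2.99 and 2.72 CPM in control and 6.82, 6.32 and 5.22 CPM after dm-αKG (1.13), and holds AP-1 letters, as does the site 55221 bp past a start (0.83). In all 5, dm-αKG replicate 3 was the lowest of its group. The median log2 ratio of all 30 peaks was -0.00245 and that of the promoter peak 0.03, so the typical peak of the locus was level.

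The densest run within 100 kb was at CDH23, where 5 of 8 well-covered distal peaks between chr10:71539533-71605005 opened, all in introns. The lowest log2 ratio of the 8 was 0.57, so the other peaks of the run were higher too. The site with the highest ratio (chr10:71550739-71550938) had 1.82, 1.51 and 2.35 CPM in control and 5.14, 4.94 and 4.53 CPM after dm-αKG (1.36). At the last site of the run, the groups were 0.091 CPM apart, with 1.86, 2.61 and 1.05 CPM in control and 3.24, 2.70 and 3.76 CPM after dm-αKG (0.81). None of the 5 had AP-1 or FOX letters, and the promoter peak had a log2 ratio of 0.39.

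The CD247 sites also formed a run, 4 of 5 well-covered distal peaks in chr1:167467463-167504282. The first had 2.18, 2.82 and 3.03 CPM in control and 5.59, 5.46 and 6.37 CPM after dm-αKG (log2 ratio 1.12), and holds AP-1 and FOX letters. The other 3 had log2 ratios of 0.71, 1.03 and 0.90, and the promoter peak was level, at 0.01. At LDLRAD4, sites with log2 ratios of 0.74 to 1.02 included one at 4.68, 4.71 and 5.63 CPM in control and 9.39, 10.5 and 10.3 CPM after dm-αKG. At BCAR3 the highest site had 8.59, 11.3 and 11.9 CPM in control and 16.6, 15.7 and 20.8 CPM after dm-αKG (0.74). Over all well-covered distal peaks nearest to the gene, the median log2 ratio was 0.66 at CD247, 0.46 at BCAR3 and 0.41 at LDLRAD4, values that include the opening sites for which these genes were chosen.

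Lists of genes were read by the share of their well-covered distal peaks that opened, where 3.11% of all such peaks within 100 kb of a start did. Over all genes, 1653 of 53163 such peaks opened, beside 4162 closing sites. The NRF2 pathway had 5 of 125 (4.00%, 1.72 to 9.02), near MAFG, BACH1, BACH2, ABCC3 and UGDH, and 8 closing. The AP-1 family itself had 1 of 80 (1.25%, 0.221 to 6.75), near JUND, and 6 closing. FOX factors had 7 of 192 (3.65%), at FOXP1, FOXK1, FOXN3 and FOXQ1, and 14 closing. All of these intervals included the share over all genes, and so did those of stress response genes (5 of 138, 3.62%, 6 closing), TGF-β and SMAD genes (4 of 159, 2.52%, 13 closing), WNT and TCF genes (4 of 172, 2.33%, 20 closing), genes of the TCA cycle and 2-oxoglutarate (2 of 73, 2.74%, 10 closing) and genes of actin, adhesion and polarity (3 of 253, 1.19%, 15 closing).

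In the NRF2 pathway, the BACH2 site, in an intron of a repressor that competes with NRF2 for its sites, had 7.86, 7.87 and 9.72 CPM in control and 13.6, 14.6 and 15.7 CPM after dm-αKG (log2 ratio 0.79) and holds AP-1 letters. The MAFG site, 1528 bp before a start of the gene for a small MAF partner of NRF2, had 5.45, 4.96 and 5.2 CPM in control and 10.6, 8.62 and 7.22 CPM after dm-αKG (0.76). The UGDH site, in the gene of UDP-glucose dehydrogenase, had a log2 ratio of 0.75. Neither the MAFG nor the UGDH site had AP-1 letters. The JUND site, 19664 bp before a start, had 2.77, 2.69 and 3.22 CPM in control and 5.85, 6.45 and 7.29 CPM after dm-αKG (1.17) and holds AP-1 letters.

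Lists of lineage genes, not all of them transcription factors, had shares of 4.57% (15 of 328, 2.79 to 7.41) for pluripotency and 4.53% (11 of 243, 2.55 to 7.92) for trophectoderm. Closing sites numbered 25 and 11, and both intervals included the 3.11% of all genes. Genes of the pluripotency list with an opening site were SOX2, KLF4, KLF5, DPPA3, PRDM14, ESRRB, LIN28A, TBX3 and SUSD2. The highest ESRRB site, 78166 bp past a start of this orphan nuclear receptor gene, had 3.45, 5.05 and 3.71 CPM in control and 9.47, 10.1 and 10.7 CPM after dm-αKG (log2 ratio 1.31) and holds FOX letters, as does the KLF4 site (0.71). Those of the trophectoderm list were GATA2, GATA3, CDX2, TP63, ITGA6 and SLC2A1. The CDX2 site, 14546 bp past a start, had 6.32, 4.67 and 5.32 CPM in control and 11.0, 9.41 and 8.98 CPM after dm-αKG (0.85). SLC2A1, the gene of the glucose transporter GLUT1, had 3 opening sites, of which the one 18591 bp past a start had 10.8, 11.0 and 8.85 CPM in control and 18.5, 18.6 and 19.3 CPM after dm-αKG (0.88). None of the 11 trophectoderm sites had AP-1 letters.

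Of the genes that handle αKG and pyruvate, PDK4 and OGDH had 1 opening site each. The PDK4 site, 12366 bp before a start of the gene for a kinase that restrains pyruvate dehydrogenase, had 2.27, 1.51 and 2.35 CPM in control and 5.14, 5.33 and 6.37 CPM after dm-αKG, a log2 ratio of 1.46. The OGDH site, in an intron of the gene for a subunit of the αKG dehydrogenase complex, had 2.86, 2.61 and 1.92 CPM in control and 3.06, 4.54 and 5.30 CPM after dm-αKG (0.80), with a gap between the groups of only 0.193 CPM. At PDK4 that gap was 2.79 CPM.

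Among the named sites of the remaining lists, the largest ratio was at LAMA5, a laminin chain gene, whose intronic site had 1.36, 1.18 and 1.24 CPM in control and 5.03, 4.21 and 2.23 CPM after dm-αKG (log2 ratio 1.60) and holds AP-1 letters. Its dm-αKG replicate 3 was less than 1 CPM above the controls. The GADD45G site, in an exon of a growth arrest gene, had 3.82, 4.29 and 4.77 CPM in control and 7.98, 6.91 and 7.52 CPM after dm-αKG (0.80) and holds NRF2 letters. Sites near HSPA5 (an endoplasmic reticulum chaperone, 0.71) and MT2A (a metallothionein, 0.77) hold neither. Sites at SKI, TGFBR3 and BMPR1A had log2 ratios of 0.99, 0.90 and 0.74, those at WNT3 0.90 and 0.84, and those near TPM1, PARD6B and FZD5 0.97, 0.86 and 0.71. The FOX factor sites at FOXP1, FOXQ1 and FOXN3 had 0.96, 0.80 and 0.77, of which only that at FOXP1 holds FOX letters.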

How the data were processed

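ATAC-seq libraries of H9 nES cells were analysed, 3 control and 3 treated with dm-αKG, grouped by the treatment in the labels. The authors aligned paired-end reads to hg38 with Bowtie 2, called peaks with MACS2 in each replicate and kept reproducible peaks for each treatment with the ENCODE ATAC-seq pipeline. They deposited 1 peak list per treatment, with the score of each peak, its fold enrichment over background as a ratio, and p- and q-values as −log10, of which the fold and the summit were used here. They cut peaks to 200 bp around the summit, merged both lists and deposited raw counts of reads per merged peak and library, without normalization.

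Counts were scaled to CPM of the table's total. TMM factors were between 0.991 and 1.01. The opening sites and gene lists were chosen with earlier results of these data known. Starts and gene positions were taken from GENCODE 44 and motifs from the hg38 reference (Python 3.11.15, pysam 0.24.0). The test over all peaks was that of edgeR 4.0.16 under R 4.3.3 (TMM, quasi-likelihood, treatment as the only term, Benjamini-Hochberg), with DESeq2 1.42.0 as an alternative, which gave no adjusted p for 6652 peaks. Sites were named by a fixed rule: the 6 with the highest dm-αKG CPM, the 6 with the highest log2 ratio, the 6 with NRF2 and the 4 with AP-1 but no NRF2 letters of highest level, the 3 of highest dm-αKG level per gene list, the 5 genes with the most sites, the densest run, and those next to each limit, of which 1 is not reported here. Genes with an opening site in a list are named as counts of that list, and the 2 words named among the sites without AP-1 and FOX letters were chosen after their values were seen. The scripts were tested on simulated data, in which edgeR recovered 189 of 200 peaks of the 171517 changed 2.5-fold, with 0 false calls. The changed peaks were drawn from those of higher mean count and moved up or down by more than the limit on the fold change. Most opening sites had a smaller log2 ratio, so recovery at such sites was not tested. Wilson intervals are at 95% and cover counting error only. Whether PCR copies remain among the deposited counts cannot be told from the counts. Alternatives changed scaling, limits, motifs and libraries. The other experiments of the study were not analysed here.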

Additional observations from a re-analysis of the deposited data

How the results depend on the processing

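The number of opening sites stayed within 1.5 times 2019 under other scalings (1889 with TMM, 1899 with DESeq2 size factors), other distances or starts and a minimum of 10 counts (1685), and lay between 2303 and 2459 when 1 library was left out, with 82.3% to 88.4% of the opening sites kept. With 1 CPM added to both means it fell to 773, which follows from the low CPM of the sites. The number of opening sites called by edgeR was 443 to 485 with DESeq2, another scaling, a filter or a replicate block, and 458 to 549 without 1 library. With the replicate number as a block it was 485, while same-numbered libraries did not deviate together (correlations of -0.02, 0.00 and 0.03). Whether same-numbered libraries were prepared together cannot be told from these values.

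The share of sites with AP-1 letters was 52.0% with 1 mismatch allowed, when the others had 44.4%, and 21.1% in sites called by edgeR. It lay between 13.1% and 14.1% without 1 library. The share with NRF2 letters was 13.4% with the looser core, 6.54% in sites called by edgeR and 3.54% to 4.05% without 1 library. The median GC content was 52% to 53% without 1 library, the median log2 ratio of neighbours was 0.0794 within 20 kb, and the left-out median was 0.59 with no pseudocount. Sites near listed genes numbered 57, and 72 within 1 Mb. Exact letters miss weaker sites, nearest starts need not be targets, and at CPM of 1 to 3 a log2 ratio rests on few counts.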
